A study of Mus musculus with 6 samples.

Results

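This account follows 10 long noncoding RNA genes, Gm12239, Gm41492, Gm9750, 3110039M20Rik, Gm13872, C030018K13Rik, Neat1, Malat1, Snhg9 and Meg3, of 32285 genes counted, through single cells sorted from the mouse amygdala. The 10 were chosen by measured values, with earlier results of these data in view: their levels in astrocytes and in pericytes, their relation to RNA quality or, for Gm12239, its level after recall in astrocytes. Those levels are therefore descriptions with no test, and tests are given only for the behavioural groups. Astrocytes were barcodes with at least 20 UMIs (unique molecular identifiers, each counting 1 captured RNA molecule) of Slc1a2 and Slc1a3 together and at most 3 of Vtn and Rgs5. Pericytes, the contractile cells that wrap capillaries, were barcodes with at least 10 UMIs of Vtn and Rgs5 and at most 5 of Slc1a2 and Slc1a3.

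The mice were young adult male wild-type C57BL/6N. NoFC mice were not shocked, FC mice were fear-conditioned, NoFR mice were conditioned and kept in the home cage for a day without recall, and FR mice recalled the context a day after conditioning. The amygdala was taken 90 min after the behaviour began and was dissociated with papain in the presence of actinomycin D, triptolide and anisomycin, which block transcription and translation. Cells were sorted with an antibody to ATP1B2 (ACSA2), tagged per mouse with hashtag antibodies and pooled into 3 droplet libraries, so that 16 mice, 4 per group, shared 3 captures.

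A long noncoding RNA is transcribed and processed like an mRNA but carries no conserved reading frame. Some build nuclear bodies: Neat1 is the scaffold of paraspeckles, and Malat1 accumulates in nuclear speckles, where splicing factors are stored. Others carry small RNAs in their introns, as the small nucleolar RNA hosts do, are expressed from 1 parental allele, as Meg3 is, or run antisense to a coding gene. Astrocytes are the glia that clear glutamate through SLC1A2 and SLC1A3, and an RNA that stays in the nucleus can be lost or kept differently from cytoplasmic RNA when a cell is damaged.

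The 3 libraries held 5287, 3631 and 4628 barcodes and 42350059, 31700569 and 33368825 UMIs. Of 13546 barcodes, 8757 were astrocytes with a median of 9891 UMIs, and 2260 were pericytes with a median of 5006. Another 101 passed both upper thresholds, and 2428 belonged to neither class. Libraries shared 18 barcode sequences in all, of which 12 were astrocytes or pericytes in both libraries. The labelled cell type was astrocyte. The 15 astrocyte markers summed to 25650 CPM (counts per 1000000 UMIs of the class) in astrocytes and 9842 in pericytes, and the sort target Atp1b2 stood at 813.9 and 676.2, so pericytes carried the sort target too. Marker sums for neurons (14.96 CPM), oligodendrocytes (11.07) and microglia (44.8) were low in astrocytes. The sum for oligodendrocyte progenitors, 1190, came with Cspg5, Olig1 and Olig2, which astrocytes also express.

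The reads of this assay start near the 3′ end of polyadenylated RNA, so the annotated transcript ends were looked at. Where the counted reads of each member lay was not examined. The last 60 bases of the longest annotated transcript are shown for Gm12239, Gm9750 and Gm13872, 3 of the 4 members annotated as antisense, and for Malat1, in mouse GRCm38 from GENCODE vM21, with the polyadenylation signal AATAAA in capitals where it lies within 40 bases of the end.
Gm12239, chr11:55772088-56070848, plus strand: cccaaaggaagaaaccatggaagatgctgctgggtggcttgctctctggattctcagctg
Gm9750, chr19:9135157-9279175, plus strand: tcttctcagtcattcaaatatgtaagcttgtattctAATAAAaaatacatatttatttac
Gm13872, chr2:102743651-102746746, minus strand: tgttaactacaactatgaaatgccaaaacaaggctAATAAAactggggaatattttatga
Malat1, chr19:5795690-5802672, minus strand: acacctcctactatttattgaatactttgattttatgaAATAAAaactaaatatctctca

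AATAAA was present in that window in the longest transcript of 7 of the 9 members other than Neat1, and was missing from those of Gm12239 and C030018K13Rik, so the annotated ends of these 2 carry no such signal. Neat1 ends in 2 ways: the 3004-base Neat1-202 carried AATAAA 20 bases before its end, and the 20771-base Neat1-201 did not. Within the longest annotated transcripts, a run of at least 8 adenines, where the oligo-dT primer can also anneal, occurred once in 3110039M20Rik, once in Malat1 and 7 times in Meg3. The run of Malat1 covers bases 6674 to 6685 of its 6983-base annotated transcript, and whether the RNA ends near it was not tested. The Malat1 run is shown with 60 bases on each side (chr19:5795928-5796059, minus strand) and the adenines in capitals. Counts from such a site cannot be told apart here from counts at the annotated end.
Malat1, adenine run: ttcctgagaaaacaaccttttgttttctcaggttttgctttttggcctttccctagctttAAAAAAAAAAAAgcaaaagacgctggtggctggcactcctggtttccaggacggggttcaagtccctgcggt

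Snhg9 is so short that its whole spliced transcript fits beside them (chr17:24719531-24719965, minus strand, 183 bases in 2 exons, AATAAA in capitals). It is shown whole because the short RNA was counted at a high level in some barcodes of library 3, described further on.
Snhg9-201: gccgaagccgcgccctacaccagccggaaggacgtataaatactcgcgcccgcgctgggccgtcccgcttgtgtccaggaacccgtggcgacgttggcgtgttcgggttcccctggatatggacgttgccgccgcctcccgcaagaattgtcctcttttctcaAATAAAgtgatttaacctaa

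The promoters were compared because the members fell into genes read almost only in astrocytes and genes read in both classes. RefSeq promoters on GRCm38.p6, 250 bases before to 50 after the start, were found for 8 of the 10 members, with no entry for Gm12239 and Neat1. The CG dinucleotides are in capitals, and these 3 promoters span the range from an astrocyte member to a gene of both classes.
C030018K13Rik, chr5:64476758-64477057, plus strand: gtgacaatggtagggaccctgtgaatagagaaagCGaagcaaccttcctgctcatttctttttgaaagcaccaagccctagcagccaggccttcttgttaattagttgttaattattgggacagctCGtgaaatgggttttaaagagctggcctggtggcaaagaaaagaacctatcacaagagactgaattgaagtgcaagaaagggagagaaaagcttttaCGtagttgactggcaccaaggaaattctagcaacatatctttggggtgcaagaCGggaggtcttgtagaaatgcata
Meg3, chr12:109540746-109541045, plus strand: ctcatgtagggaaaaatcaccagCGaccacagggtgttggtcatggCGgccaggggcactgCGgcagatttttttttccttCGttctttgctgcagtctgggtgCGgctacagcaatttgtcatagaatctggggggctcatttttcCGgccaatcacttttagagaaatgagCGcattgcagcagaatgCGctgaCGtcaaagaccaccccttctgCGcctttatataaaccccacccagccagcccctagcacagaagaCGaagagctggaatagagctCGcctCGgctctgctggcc
Snhg9, chr17:24719916-24720215, minus strand: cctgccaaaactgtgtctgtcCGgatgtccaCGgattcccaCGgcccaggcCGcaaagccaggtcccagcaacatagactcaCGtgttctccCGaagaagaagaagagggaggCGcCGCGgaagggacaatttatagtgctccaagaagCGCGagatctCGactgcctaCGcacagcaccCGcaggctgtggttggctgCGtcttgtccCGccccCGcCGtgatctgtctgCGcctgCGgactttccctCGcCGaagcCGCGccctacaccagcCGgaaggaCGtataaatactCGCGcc

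CG occurred 28 times in the promoter of Snhg9, 13 times in that of Meg3 and 10 times in that of Malat1. The 5 astrocyte members with an entry held fewer, with 4 in C030018K13Rik, 2 in Gm41492, 1 in 3110039M20Rik and none in Gm9750 or Gm13872. The median over 32851 promoters was 7, and 38.04% held 4 or fewer, so low counts were also common elsewhere. Meg3 has a second RefSeq start, whose promoter held 1. The letters TGACGTCA, a palindrome that reads the same on both strands, occurred in the first Meg3 promoter and in 1.79% of all promoters. TATAAA, searched on both strands, occurred in 3110039M20Rik, Snhg9 and the first Meg3 promoter and in 13.62% of all. The RefSeq starts of Gm41492 and Gm9750 lie apart from the GENCODE starts, so those promoters may not be the ones used here.

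Long noncoding RNA genes, 9830 of the 32158 genes matched to the annotation, gave 13.76% to 14.64% of astrocyte UMIs and 11.46% to 11.99% of pericyte UMIs in the 3 libraries. Most of this was Malat1. Without it the shares were 4.833% to 5.236% in astrocytes and 4.442% to 4.654% in pericytes.

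Gm12239, Gm9750 and Gm13872 are annotated as antisense RNAs, as is Snhg9, described further on. The first 3 were read in astrocytes of every library and almost not at all in pericytes. Gm12239 had 342.2, 328.5 and 330.4 CPM in the astrocytes of libraries 1, 2 and 3, against 3.396, 2.261 and 2.147 in pericytes. The pooled ratio was 126.1 (95% interval 88.8 to 185.6, counting error only), from 30586 and 31 UMIs. At least 1 UMI was present in 67.58% of astrocytes and 1.327% of pericytes, and after thinning to 3000 UMIs the 8216 astrocytes and 2103 pericytes that had at least that many, with shallower cells left out, in 47.58% and 0.8559%. Gm12239 spans 298761 bases of chromosome 11 and contains, on the other strand, Nmur2, a neuromedin U receptor gene that itself had 8.636 ± 0.53 CPM in astrocytes (SD, n = 3 libraries) and no UMI in pericytes. Its next coding neighbours include, 940539 bases on, the AMPA receptor gene Gria1 (170.7 ± 13.9 in astrocytes and 2.257 ± 0.78 in pericytes). The libraries of each class lay close together, and the classes did not overlap.

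Gm9750 had 106.3, 101.4 and 102.7 CPM in astrocytes, and 0.4527, 1.413 and 0.8052 in pericytes, where 10 UMIs were counted in all. The pooled ratio was 121.2 (65.87 to 252.8). Gm9750 starts inside Asrgl1, the gene of an asparaginase, on the opposite strand. Asrgl1 stood at 613.1 ± 9.83 CPM in astrocytes and 21 ± 0.88 in pericytes, so it too was higher in astrocytes, with a smaller gap between the classes.

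Gm13872 lies wholly inside Slc1a2, the glutamate transporter gene, on the opposite strand. Its levels were 32.74, 38.68 and 30.63 CPM in astrocytes and 0.2264, 0 and 0.2684 in pericytes. Only 2 UMIs were counted in pericytes, and the pooled ratio of 197.8 had an interval from 54.71 to 1634. Slc1a2 itself, at 8483 ± 148 against 77.21 ± 19.6, was used to define both classes. The sources used here do not say whether counting used strand and introns, so reads of Gm13872 and Slc1a2, of Gm9750 and Asrgl1, of Gm12239 and Nmur2, and of Snhg9 and Rps2 cannot be told apart where they overlap.

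Gm41492, 3110039M20Rik and C030018K13Rik are annotated as intergenic RNAs, although 3110039M20Rik overlaps Gm43517, an annotated coding gene on the same strand (chr12:49385174-49394127). Gm41492 (chr16:91138455-91159089, minus strand) had 27.28, 25.97 and 26.39 CPM in astrocytes and 0.6791, 0 and 0.2684 in pericytes, from 4 pericyte UMIs, and its pooled ratio was 77.75 (30.33 to 285.6). It lies 66368 bases from Olig2, a transcription factor gene of the oligodendrocyte lineage that also marks some astrocytes, which had 10.81 ± 0.55 CPM in astrocytes and no UMI in pericytes. These were the neighbours in position only.

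3110039M20Rik (chr12:49389652-49407360, plus strand) had 30.33, 27.63 and 26.43 CPM in astrocytes and 0.6791, 0.2826 and 0.5368 in pericytes, a ratio of 55.18 (25.32 to 150.5). Reads in its overlap with Gm43517 can belong to either gene, so its level is uncertain. The libraries of the 2 classes did not overlap.

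C030018K13Rik (chr5:64477008-64483967, plus strand) had 87.42, 79.35 and 79.28 CPM in astrocytes and 0.2264, 0.2826 and 0 in pericytes. Its pooled ratio was 482.1 (133.4 to 3982), from 7547 UMIs against 2, an interval that overlapped those of Gm12239, Gm41492, Gm9750, 3110039M20Rik and Gm13872. Its closest coding neighbour, Tbc1d1, a regulator of glucose transporter traffic 125522 bases away, went the other way, with 11.7 ± 0.40 in astrocytes and 347.1 ± 19.6 in pericytes.

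**Figure D1:**
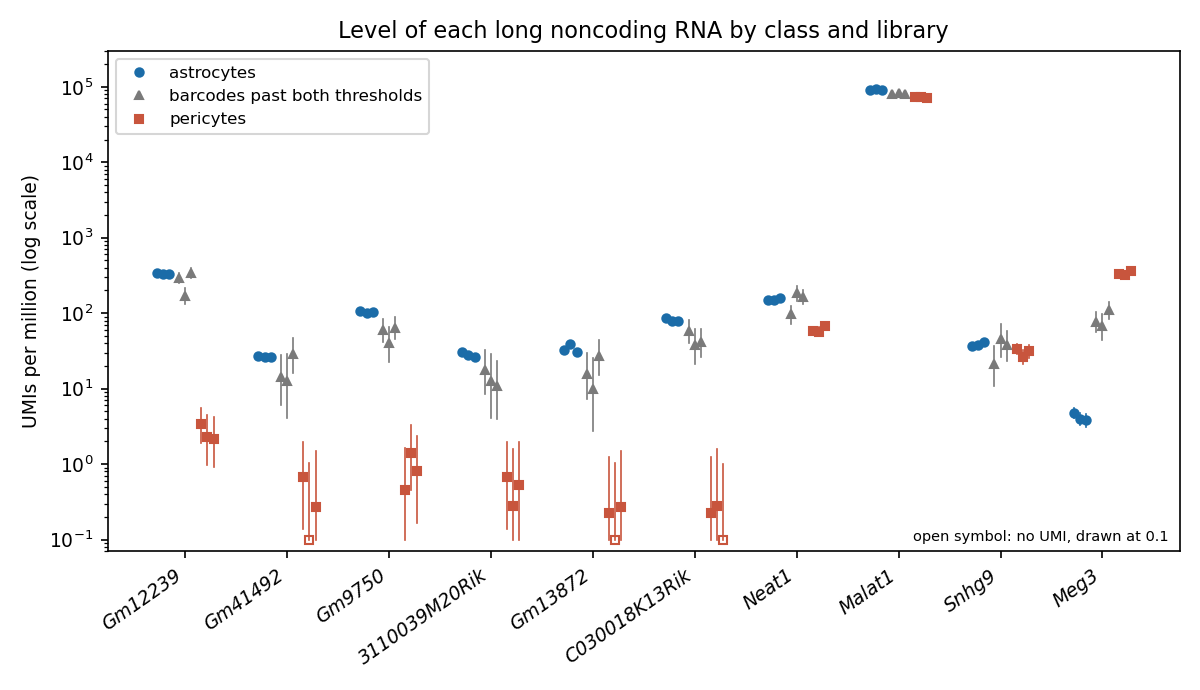
Level of the 10 RNAs in CPM (log axis) in astrocytes (blue circles), barcodes past both thresholds (grey triangles) and pericytes (red squares), with 1 point for each of libraries 1 to 3 from left to right, bars for the 95% exact Poisson interval, and open symbols at 0.1 where no UMI was counted. For the first 6 RNAs all astrocyte points lie at least 10-fold above the pericyte points, for Neat1, Malat1 and Snhg9 the classes lie close together, and for Meg3 the order turns, with 3.847 to 4.744 in astrocytes and 322.4 to 362.1 in pericytes.

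RNA set free from broken cells reaches all droplets, so the few pericyte UMIs were set beside those of astrocyte markers that did not define the classes. In pericytes the 13 other astrocyte markers stood at a median of 1.22% of their astrocyte level, with the lowest at 0.8125% for Slc4a4. The 6 RNAs stood at 0.7934% (Gm12239), 1.286% (Gm41492), 0.8255% (Gm9750), 1.812% (3110039M20Rik), 0.5056% (Gm13872) and 0.2074% (C030018K13Rik). In these pooled values Gm12239, Gm13872 and C030018K13Rik lay below the lowest marker, on 31, 2 and 2 pericyte UMIs. Gm9750 lay between the lowest marker and the median, and Gm41492 and 3110039M20Rik lay just above the median on 4 and 6 pericyte UMIs. The order was not stable: in library 1 Gm12239 (0.9924%) and Gm13872 (0.6915%) lay above the lowest marker there, Gjb6 at 0.5109%. Only C030018K13Rik lay below the lowest marker in every library. Whether the pericyte UMIs of the 6 came from free RNA, from mixed barcodes or from low expression was not tested. The 101 barcodes past both thresholds fell between: Gm12239 had 279.4 CPM there, Gm9750 56.27 and C030018K13Rik 46.45.

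Neat1, which holds paraspeckles together, was read in both classes and was higher in astrocytes. It had 150.2, 148.3 and 159.3 CPM in astrocytes and 58.86, 57.08 and 67.37 in pericytes, a pooled ratio of 2.497 (2.316 to 2.696). Neat1 was present in 54.19% of astrocytes and in 22.7% of pericytes, and after thinning in 29.21% and 15.5%. Neat1 therefore differed in the same direction in all 3 libraries, and its pericyte level, 40.05% of the astrocyte level, stood far above the 1.22% median of the astrocyte markers. Its coding neighbour Frmd8, 4224 bases away, was higher in pericytes (28.7 ± 1.70) than in astrocytes (5.806 ± 0.57).

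Malat1 had 90170, 94010 and 89270 CPM in astrocytes and 72500, 73390 and 70140 in pericytes, a ratio of 1.264 (1.261 to 1.267, counting error only). At least 1 UMI was present in 99.28% of astrocytes and in 99.91% of pericytes. The 2 classes did not overlap over libraries, with pericytes at 0.804, 0.7807 and 0.7857 of the astrocyte level in libraries 1 to 3. The change of Malat1 with RNA quality, given further on, was of like size, at 0.7386, 0.7982 and 0.7327 in astrocytes.

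Snhg9 is the host of the small nucleolar RNA Snora78, which guides pseudouridylation of ribosomal RNA and lies between its exons, and it overlaps the ribosomal protein gene Rps2 on the opposite strand. It had 36.36, 37.43 and 41.89 CPM in astrocytes and 33.73, 26.28 and 31.13 in pericytes. The pooled ratio was 1.252 (1.122 to 1.399), and within library 1 it was 1.078 with an interval from 0.9094 to 1.286, so that library alone showed no gap beyond counting error. Rps2 had the opposite order, 140.8 ± 14.7 in astrocytes and 330.7 ± 7.22 in pericytes.

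Meg3, the maternally expressed RNA of the Dlk1 domain, was the pericyte member. It had 334.8, 322.4 and 362.1 CPM in pericytes and 4.744, 3.979 and 3.847 in astrocytes, 80.06 times as much in pericytes (72.12 to 89.09). A UMI was present in 62.48% of pericytes and 3.072% of astrocytes. Its astrocyte level was 1.249% of the pericyte level, inside the range of 7 pericyte markers that did not define the class (0.03979% for Abcc9 to 4.135% for Pdgfrb, median 0.05977%). The coding genes of the same domain were close to absent: Dlk1 had 0.7236 ± 0.37 in astrocytes and 0.3206 ± 0.34 in pericytes, and Rtl1 had no UMI in astrocytes and 0.8528 ± 0.050 in pericytes.

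Related genes were taken from 3 lists. Of 13 nuclear or imprinted long noncoding RNAs, 5 were higher in astrocytes by the pooled level, among them Kcnq1ot1, the imprinted antisense RNA of Kcnq1 (165.9 against 133.5 CPM), Firre (71.05 against 41.26), Pvt1 (13.42 against 0.2568) and Miat (5.228 against 0.1712). Higher in pericytes were Rian (31.16 against 1.05) and Mirg (5.992 against 0.1203), which lie in the same imprinted domain as Meg3, as well as the imprinted Airn (672.7 against 10.47) and Peg13 (65.4 against 3.544). So the 3 RNAs of the Meg3 domain shared their order. The list summed to 617 in astrocytes and 1338 in pericytes.

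Of 16 small nucleolar RNA hosts, 9 were higher in astrocytes, and the list summed to 417.8 in astrocytes and 438.1 in pericytes. Gas5, a host with many small nucleolar RNAs, had 126 and 97.5, while Snhg18 had 7.623 and 82.52, so the hosts did not move as a block. Of 14 paraspeckle and speckle proteins, 2 were higher in astrocytes, Son (1126 against 925.8) and Srsf1 (99.56 against 75.42). For proteins of the list that bind Neat1, Sfpq had 181.5 in astrocytes and 243.5 in pericytes, Nono 51.76 and 100.8, and Pspc1 72.43 and 76.01. Sfpq and Nono were thus higher in pericytes, opposite to Neat1, while Pspc1, at 104.6%, 102.4% and 107.7% of its astrocyte level on 261 to 334 pericyte UMIs per library, differed little between the classes.

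Malat1 moved with the share of UMIs from mitochondrial genes, which is used as a sign of damaged cells. Across the astrocytes of a library, Spearman's rho between the Malat1 level and this share lay between -0.4022 and -0.323 in the 3 libraries, and across pericytes between -0.2855 and -0.2212. Both quantities have total UMIs in the denominator. With mitochondrial UMIs taken out of the denominator of the level, and Malat1 itself kept in it, rho was -0.3707 to -0.29 in astrocytes. After thinning to 3000 UMIs it was -0.3172 to -0.241. The points are cells that share a library, so no p is given.

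By quartile of the mitochondrial share, Malat1 in library 1 astrocytes stood at 100900, 91690, 86820 and 74520 CPM from the lowest to the highest quartile, whose median shares were 1.184%, 1.811%, 2.426% and 4.04%. In library 2 the values were 100900, 96750, 91950 and 80540, and in library 3 98810, 92320, 85040 and 72400. All 3 libraries gave the same order. The highest quartile stood at 0.7386, 0.7982 and 0.7327 of the lowest. In pericytes these ratios were 0.8301, 0.7424 and 0.7773.

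The other members changed less evenly. Gm12239 stood at 372.9, 377.2 and 398.2 CPM in the lowest quartile of the 3 libraries and at 309.2, 308.2 and 298.7 in the highest. Gm9750 was also lower in the highest quartile of every library (0.6314, 0.8272 and 0.7746 of the lowest), as was Gm13872 (0.7065, 0.8113 and 0.6555). Snhg9 was higher in summed counts of the highest quartile, at 1.485, 1.209 and 1.554 of the lowest quartile in astrocytes, as was Gm41492, at 1.176, 1.227 and 1.106. Across single astrocytes, however, rho with the mitochondrial share was weakly negative for both, at -0.0399 to -0.0047 for Snhg9 and -0.0632 to -0.0295 for Gm41492, so no direction is read for these 2. Neat1 in the highest quartile stood at 0.9336, 0.7944 and 0.9064 of the lowest. After thinning, no member other than Malat1 had a rho with the mitochondrial share beyond -0.0782 in astrocytes.

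Rank correlations with total UMIs across single cells were weak. Across astrocytes, rho with total UMIs was 0.208 to 0.281 for C030018K13Rik, 0.228 to 0.2662 for Gm13872 and 0.1626 to 0.201 for Neat1. After thinning to 3000 UMIs these ranges shrank to 0.0354 to 0.0522, 0.0434 to 0.0808 and 0.023 to 0.0566. The thinned cells leave out those under 3000 UMIs, so thinning and the range of depth changed together. Malat1 in pericytes kept a rho of 0.1583 to 0.2471 after thinning, from 0.1834 to 0.2886 before. Summed counts by quartile of total UMIs changed more for some members. In astrocytes the highest quartile of Gm13872 stood at 1.868, 1.902 and 1.897 of the lowest in libraries 1 to 3. For C030018K13Rik the ratios were 1.266, 1.404 and 1.608. Snhg9 went the other way in summed counts, at 0.5384, 0.5656 and 0.5589. Across single astrocytes its rho with total UMIs was 0.0498 to 0.0688, and -0.0772 to -0.0297 after thinning, so no direction is read for Snhg9. The cause of these changes was not tested.

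Barcodes near the class thresholds differed in the same measures. The 411 barcodes just inside the astrocyte class, with 20 to 29 UMIs of Slc1a2 and Slc1a3, had a median of 2041 UMIs and a mitochondrial share of 8.836%, and the 919 just outside, with 10 to 19, had 929 UMIs and 17.9%. Malat1 stood at 49200 CPM just inside and 40750 just outside, against 91040 over all astrocytes. Gm12239 stood at 296.4 (264.9 to 330.6) and 269.8 (239.5 to 302.8), which did not differ beyond counting error. Gm13872 had 4.602 just inside (5 UMIs) and 0 just outside, a count that allows up to 3.455, against 33.86 over the class. Snhg9 had 62.59 just inside and 230.4 just outside. Around the pericyte threshold, Meg3 had 216 CPM in the 34 barcodes just inside and 449.8 in the 54 just outside.

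The 550, 225 and 247 barcodes of neither class with 20% or more mitochondrial UMIs carried the astrocyte members as well. Gm12239 had 238, 235.6 and 259 CPM there in libraries 1 to 3, or 383.1, 363.8 and 401.1 with mitochondrial UMIs left out of the total. Gm9750 had 131.5, 124 and 106 with mitochondrial UMIs left out. Malat1 had 34440, 40090 and 39950, or 55440, 61910 and 61870 with mitochondrial UMIs left out of the total. Gm13872 had no UMI in any of the 3 libraries. C030018K13Rik had 22.54, 24.8 and 22.71 with mitochondrial UMIs left out. Snhg9 had 156.3, 101.7 and 97.73, or 251.7, 157.1 and 151.4 with mitochondrial UMIs left out. The astrocyte levels given above keep mitochondrial UMIs in the total, so the 2 scales differ. With mitochondrial UMIs left out of the barcodes' totals only, Malat1, Gm13872 and C030018K13Rik stood below those levels, Snhg9 stood above, and Gm12239 and Gm9750 did not stand below. For Gm9750 in library 3 the value of 106 rested on 14 UMIs, against 102.7 in astrocytes, so no gap is read there.

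Snhg9 stood apart in library 3. Barcodes of neither class with under 1000 UMIs and under 6% mitochondrial UMIs numbered 12, 6 and 671 in the 3 libraries, a set chosen after its values were seen. In library 3 they had a median of 664 UMIs, 523 genes and a mitochondrial share of 1.59%. Snhg9 had 2250 CPM there (2114 to 2392, from 1019 UMIs) and was found in 75.56% of these barcodes, whereas the astrocytes of the same library had 41.89 and the pericytes 31.13. Among 1736 genes with at least 50 UMIs in these barcodes it ranked second by fold over the higher of the 2 classes, at 53.71, after Ttr, the transthyretin gene of the choroid plexus, at 104.3 (699.9 CPM). From 500 to 1000 UMIs, over all classes under 6% mitochondrial UMIs, library 1 gave 0 Snhg9 UMIs in 14 barcodes (95% interval up to 371.3 CPM) and library 2 gave 2 in 7 barcodes (46.36 to 1383). Both intervals lay below that of library 3 in the same bin (2105 to 2382), for counting error only. Snhg9 overlaps Rps2 on the other strand, and how far reads of Rps2 enter these counts was not tested.

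Neat1 was raised in the same barcodes, at 543.1 CPM (477.4 to 615.4) against 159.3 in the astrocytes of library 3. Malat1 was lower, at 44800, and Gm12239 stood at 192.1. By total UMIs, and over all barcodes of library 3 under 6% mitochondrial UMIs, Snhg9 stood at 2240 from 500 to 1000 UMIs, at 108.2 from 1000 to 2000 and at 47.21, 42.58, 42.47 and 30.38 in the 4 higher bins. Library 1 gave 48.32, 41.66, 36.58 and 23.85 and library 2 gave 31.09, 42.44, 37.86 and 27.04 in those 4 bins, so above 2000 UMIs the libraries ran together. The part that these barcodes' origin plays was not tested.

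**Figure D2:**
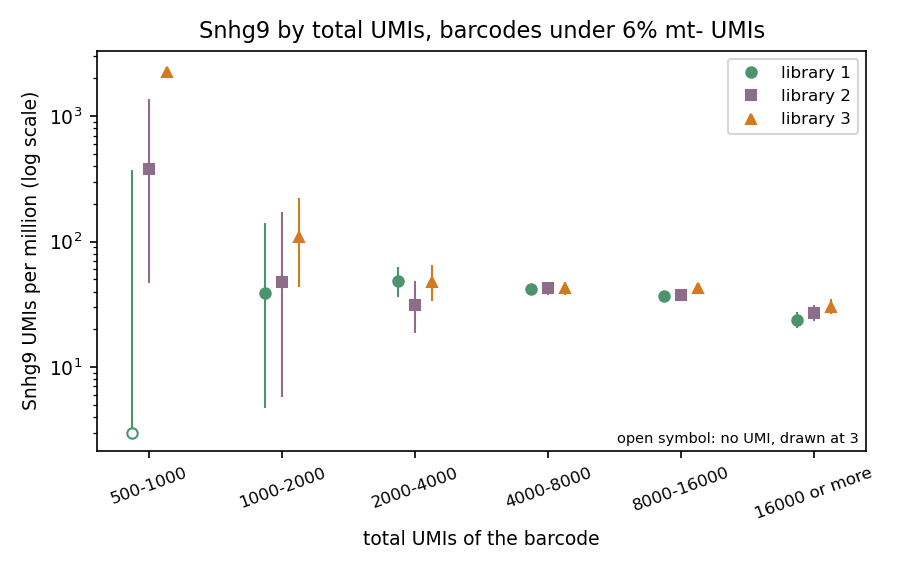
Snhg9 level in CPM (log axis) by the barcode's total UMIs, over barcodes with under 6% mitochondrial UMIs, with 1 symbol for each library, bars for the 95% exact Poisson interval and an open symbol at 3 where no UMI was counted. Library 3 reaches 2240 in its lowest bin and runs with the other libraries from 2000 UMIs upward.

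Likeness across astrocytes was measured as Pearson's correlation of depth-corrected residuals over 6109 genes found in at least 20% of astrocytes, and a gene was named when it reached 0.2 in each library. Gm12239 was most like Gpc5, a cell-surface heparan sulphate proteoglycan (mean r 0.3379), Ctnnd2, a catenin (0.3329), and Rora, a nuclear receptor (0.3327). Gm41492 was most like Rora (0.2377), Ntm, an adhesion molecule (0.2281), and Kcnma1, the large-conductance potassium channel (0.2263). Malat1 was most like the RNA-binding protein gene Hnrnpa2b1 (0.4301), Wdr17 (0.3237) and Pnn, a speckle protein (0.3168), and Neat1 was most like Aldh1a1, a retinaldehyde dehydrogenase (0.2453). The other 6 members had no gene past this limit. Between 2 members the highest mean was 0.1443, for C030018K13Rik and Malat1. These are correlations over cells of 3 libraries that share depth and RNA quality.

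For the behavioural groups, a barcode was given to a mouse when its top hashtag had at least 10 UMIs and at least 3 times the next. Only 335 of 8757 astrocytes met this, and mice with at least 10 of them left 9 mice and 302 cells, of which FC mouse 1 gave 159. There were 2 NoFC, 2 FC, 3 NoFR and 2 FR mice, and the counts summed per mouse were tested with edgeR's quasi-likelihood test with library as a covariate over 3070 genes. Both FC mice lay in library 1 and the FR mice in libraries 2 and 3. FC and FR thus shared no library and were compared only through NoFC and NoFR mice. Group and library are therefore partly confounded in this fit, and a lack of calls does not show that a member was unchanged. Of the 10 members, 5 passed the filter on low counts. None of the 5 was called over the 4 groups at an adjusted p under 0.05, where 0.0651% of all genes were called, and 0 of the 5 had an unadjusted p under 0.05. DESeq2 called 0 members as well.

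Gm12239 had 446.9 and 387.9 CPM (scaled by edgeR's TMM factors) in the NoFC mice, 412.8 and 232.1 in the FC mice, 362.1, 127.7 and 310.4 in the NoFR mice and 201.4 and 450.4 in the FR mice. The FR pair lay on both sides of the NoFC pair, and the NoFR mice lay below it, an order that was not counted over all genes. The log2 difference from NoFC was -0.51 ± 0.44 (SE) in FC, -1.05 ± 0.43 in NoFR (edgeR adjusted p = 0.839) and -0.74 ± 0.44 in FR (adjusted p = 0.9998). Gm12239 was chosen with a lower FR level in astrocytes known, so these values describe and do not test that difference. Without NoFC mouse 3 the FR difference was -0.23, and without FR mouse 3 it was -0.25. These mice were the only ones of library 2 in this fit, and library was a covariate. With either left out, the difference therefore rested on the same other mice, so the values are not separate checks. The astrocytes of NoFC mouse 3 had a median mitochondrial share of 12.976%, and its bearing on the difference was not tested.

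The 4 other members that passed each gave an adjusted p of 0.999 over the groups in edgeR. Neat1 had 174.4 and 132.2 in the NoFC mice, 159.7 and 105.5 in the FC mice, 177, 239.5 and 182.6 in the NoFR mice and 116 and 141.2 in the FR mice. Its 3 NoFR mice were the highest of the 9. How many of all genes order these mice in this way was not counted, so the order is not read as a trait of Neat1. NoFR against FC gave a log2 difference of 0.55 ± 0.36 for Neat1 (edgeR adjusted p = 0.9997). With looser hashtags and 16 mice the sign turned, at -0.06 ± 0.19 for Neat1 (edgeR adjusted p = 1). Malat1 had 72150 and 80080, then 81360 and 85400, then 92420, 86960 and 75430, and 80090 and 63150, in the same order of groups, and Gm9750 43.6 and 70.52, then 103.3 and 112.5, then 112.7, 23.95 and 118.7, and 87.57 and 154.6. C030018K13Rik ranged from 16.09 to 130.8 over the 9 mice. No member was called between any 2 groups, and 1 had an unadjusted p under 0.05 in edgeR, Gm12239 between NoFC and NoFR. In that pair 161 of the 3070 genes had one, so this is not read as a result about Gm12239. Of all genes, 0.0651% were called between NoFC and FC, 0.0977% between NoFC and NoFR and 0.0326% between NoFC and FR, and 0% among the 3 conditioned groups. Those last 3 pairs (FC with NoFR, FC with FR, NoFR with FR) had 88, 92 and 137 genes at an unadjusted p under 0.05 in edgeR and none called by DESeq2. The pairs share mice.

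Looser hashtags, with at least 5 UMIs and at least 2 times the next, gave all 16 mice and 1402 astrocytes, 535 of them from FC mouse 1. They passed 9 of the 10 members into a test of 6953 genes. None was called over the 4 groups by edgeR, and 0% of all genes were, with 176 genes and none of the members at an unadjusted p under 0.05. Gm12239 had 322.3, 292.4, 398.3 and 554.4 CPM in the 4 NoFC mice, 382.5, 300.7, 254.1 and 367.6 in FC, 451.6, 253.6, 333.1 and 202.2 in NoFR and 267.6, 176.5, 290.3 and 314.4 in FR. The means were 391.9 ± 117.2, 326.2 ± 59.8, 310.1 ± 108.6 and 262.2 ± 60.2 (SD, n = 4 mice). FR mouse 4 lay above the lowest NoFC mouse, and the other FR mice lay below all of them. The log2 difference of FR from NoFC was -0.52 ± 0.22 for Gm12239 (edgeR adjusted p = 0.9998), again a description.

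Gm13872 had 12.49, 5.734, 23.9 and 42.11 in NoFC and 42.05, 34.97, 69.89 and 48.55 in FC, a log2 difference of 1.12 ± 0.45 (edgeR adjusted p = 0.9143). The 2 lowest FC mice lay below the highest NoFC mouse, so the groups overlapped, and the lowest NoFC value rested on 1 UMI. Neat1 had 102.9, 113.5, 130.1 and 121.9 in the FR mice and 174.5, 126.9, 165.2 and 194.2 in the FC mice, a log2 difference of -0.46 ± 0.19 (edgeR adjusted p = 0.9999). The FR mice of Neat1 also lay below most NoFR mice (155, 162.1, 146.2 and 109.5), at -0.40 ± 0.20. Malat1 had means of 76530 ± 9808 for NoFC, 90000 ± 12920 for FC, 79260 ± 13850 for NoFR and 89480 ± 7289 for FR. No member difference passed the correction over all genes in any of the 6 pairs. In each of these pairs edgeR called 0 of all 6953 genes, so the lack of calls is not a result about the members.

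Pericytes were better tagged, and 1024 of them from all 16 mice, 36 to 110 per mouse, entered the same test over 6543 genes. The 4 members that passed were Neat1, Malat1, Snhg9 and Meg3. None was called over the 4 groups, where 0.627% of all genes were called, and 0 had an unadjusted p under 0.05. No member was called between any 2 groups either, and none had an unadjusted p under 0.05. Of all genes, 1.07% were called between NoFC and NoFR, 0.443% between FC and NoFR, 0.0917% between NoFR and FR, and 0% in the other 3 pairs. DESeq2 called 0 members. These 3 pairs (NoFC with FC, NoFC with FR, FC with FR) had 300, 418 and 316 genes at an unadjusted p under 0.05 in edgeR, and DESeq2 called none in them.

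Meg3 had 395.8, 306.4, 330.8 and 335.1 CPM in the pericytes of the NoFC mice, 328.4, 269.5, 344.7 and 383.1 in FC, 321.2, 268.6, 302.8 and 342.7 in NoFR and 406.5, 368.2, 297.1 and 345.9 in FR. The group means lay between 308.8 ± 31.4 and 354.4 ± 45.7, and the mice of the groups overlapped (edgeR adjusted p = 0.9615). Neat1 had 102.9, 91.56, 50.65 and 54.41 in NoFC and 36.96, 57.66, 36.72 and 69.79 in FR, a log2 difference of -0.50 ± 0.28 (edgeR adjusted p = 0.822). Without NoFC mouse 4 that difference was -0.75, with an unadjusted p of 0.01636 in edgeR, and an adjusted p above the threshold. Over single mice left out, the smallest unadjusted edgeR p of any member in any pair ran from 0.01636 to 0.199. The latter was without NoFC mouse 1.

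Snhg9 in pericytes had means of 38.49 ± 10.5, 38.82 ± 13.1, 38.29 ± 16.5 and 31.19 ± 5.75 in NoFC, FC, NoFR and FR (SD, n = 4 mice, edgeR adjusted p = 0.9887). These levels rested on 6 to 19 UMIs of Snhg9 per mouse. Malat1 had 69240 ± 4615, 73700 ± 4153, 69440 ± 2383 and 74030 ± 1472 (edgeR adjusted p = 0.9092). Its 4 FR mice (72340 to 75670) lay above its 4 NoFR mice (65890 to 71050), at a log2 difference of 0.08 ± 0.062 (edgeR adjusted p = 0.907), in the pair where 0.0917% of all genes were called. How many of all genes separate these mice in this way was not counted, so the separation is not read as a trait of Malat1. The 6 astrocyte members were too low in pericytes to be tested.

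**Figure D3:**
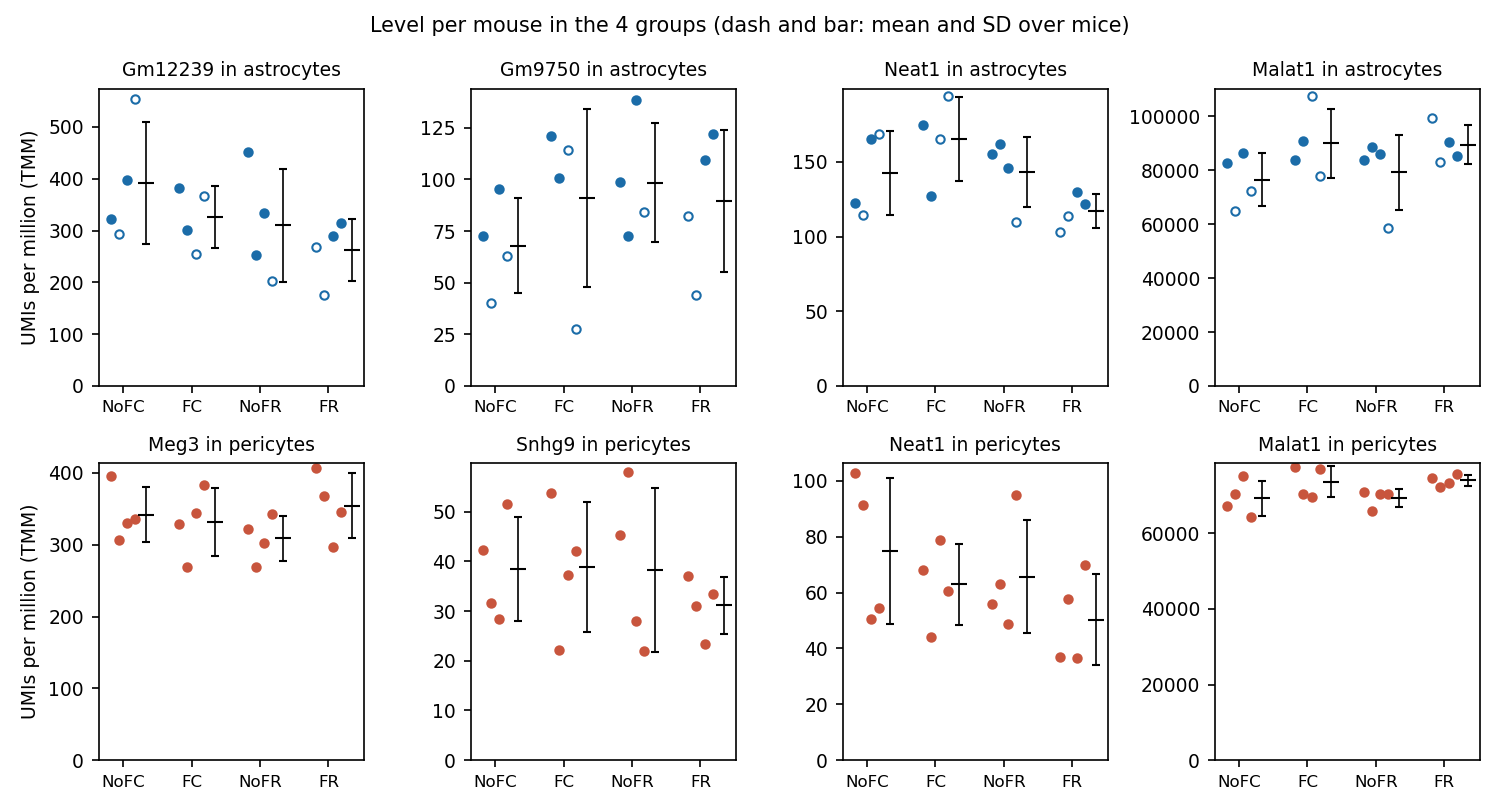
Level per mouse in the 4 groups in CPM scaled by TMM, with Gm12239, Gm9750, Neat1 and Malat1 in astrocytes under looser hashtags (top row; filled circles mark mice that also had at least 10 cells under the strict hashtags) and Meg3, Snhg9, Neat1 and Malat1 in pericytes (bottom row). The dash and bar are the mean and SD over 4 mice. Neighbouring groups overlap in most panels, as for Gm12239, with 292.4 to 554.4 in NoFC and 176.5 to 314.4 in FR. FR and NoFR do not overlap for Malat1 in pericytes, a pair in which no member was called.

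None of the tested genes of the 3 related lists was called over the 4 groups in either class. Of the nuclear or imprinted list 4 were tested in astrocytes and 9 in pericytes, of the hosts 1 and 6, and of the paraspeckle and speckle proteins 10 and 13. Over all genes 2 were called in astrocytes and 41 in pericytes.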

How the data were processed

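UMI counts per gene and barcode were deposited by the authors for 3 droplet libraries, raw and not normalized. The submitters' processing notes name Cell Ranger 3.0 and the build mm10, the study's methods name the GENCODE vM23 annotation, and the matrix headers name Cell Ranger 7.0.0. Strand and intron counting are not given in the sources used here. A deposited table tied each hashtag to a group, a mouse number and a library.

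All barcodes were used, with the class thresholds given above. Barcodes past both thresholds were set apart, and no doublet caller was run. Levels are CPM, the summed counts of a class scaled to 1000000 UMIs. They have 95% exact Poisson intervals for single libraries and pooled values, and ratios have an exact conditional interval. These intervals cover counting error only, and a count of 0 takes the upper limit of its exact Poisson interval. Counts were summed per mouse (at least 10 cells) and tested with edgeR 4.0.16 in R 4.3.3 (TMM factors, filterByExpr, quasi-likelihood F-test, library as covariate, all 4 groups in 1 fit), with Benjamini-Hochberg adjustment over all genes tested and a threshold of 0.05. The mouse was the replicate. DESeq2 1.42.0 and other thresholds, filters, scalings and left-out mice were alternatives. Descriptions used python 3.11.15. The study's own tests compared cells. The script was tested on simulated data.

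The members, gene lists and tests were chosen with earlier results of these data known. Named genes were the 10 members, up to 3 genes most like each across astrocytes, genes that overlap or neighbour a member, and 3 lists. Coordinates and transcripts come from GENCODE vM21 on GRCm38, which may differ in gene models from the annotation used for counting, and promoters from RefSeq on GRCm38.p6. A few genes of the marker lists and neighbourhoods are not reported here.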

Additional observations from a re-analysis of the deposited data

Results flagged for a closer look

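Malat1 in the pericytes of NoFR mouse 2, at 65890 CPM, lay far below the other 3 NoFR mice (70350 to 71050); of 16 groups of 4 mice examined this way, 1 was marked, and chance marks about 1 in 20 groups.

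Snhg9 reached 2250 CPM, and Neat1 543.1, in the 671 barcodes of library 3 that belonged to neither class and had under 1000 UMIs and under 6% mitochondrial UMIs. These barcodes lie outside the comparisons of astrocytes and pericytes and were set apart after their values were seen. Both levels were above those of the astrocytes and pericytes of the same library, and the cause was not tested.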

How the results depend on the processing

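No member was called between behavioural groups in either class under any setting run: looser hashtags, stricter classes, at least 5 cells per mouse, edgeR with RLE size factors, DESeq2, no low-count filter, no library covariate, library sizes without Malat1 and mitochondrial genes, or leaving out any mouse. The filter of under 6% mitochondrial UMIs with at least 100 genes could be run in pericytes and could not be fitted in astrocytes, where NoFC kept no mouse with 10 cells. The smallest member adjusted p in astrocytes was 0.06633, for Gm12239 in NoFR against NoFC without NoFC mouse 1, and in pericytes 0.5685, without FR mouse 4 (both edgeR). The log2 difference of Gm12239 from NoFC ran, over single mice left out, from -1.057 to -0.222 in FC, -1.678 to -0.698 in NoFR and -0.965 to -0.231 in FR; a group left with 1 mouse is assumed to vary like the others. Counts over all genes were unstable: in astrocytes over the 4 groups 2 in the reported fit, 0 to 55 over other settings and 1 to 74 without single mice; for FC against NoFC 2, 0 to 74 and 1 to 109; for NoFR against NoFC 3, 0 to 101 and 1 to 183; for FR against NoFC 1, 0 to 9 and 1 to 33; for the other pairs 0, up to 38 and up to 55. In pericytes they were 41, 24 to 92 and 26 to 56 over the 4 groups, 70, 39 to 87 and 25 to 77 for NoFR against NoFC, 29, 17 to 55 and 14 to 40 for NoFR against FC, and 6, 4 to 17 and 3 to 13 for FR against NoFR. Without Malat1 and mitochondrial genes in the totals 9 of 10 astrocyte levels moved beyond their SD over libraries and none of the 10 class ratios did; the mean of per-cell levels moved 5 of 10 astrocyte levels and 2 of 10 ratios. Few hashtagged astrocytes limit the group tests. No paired analysis was possible because the labels' replicate numbers name libraries and a mouse number only names a mouse within its group.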
